A study of Mus musculus with 6 samples.

Results

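Transcripts of 10 genes that mark blood vessel endothelium were examined in macrophages sorted from mouse heart allografts. The genes were *Pecam1*, *Cdh5*, *Kdr*, *Eng*, *Tek*, *Tie1*, *Vwf*, *Esam*, *Cldn5* and *Emcn*. They were a fixed list of 10 genes out of 22180 genes measured on probe sets that the platform annotation gives to a single gene, and each of the 10 had 1 such probe set. Hearts of BALB/c donors had been placed in fully mismatched C57BL/6 recipients, and on day 6 macrophages were taken from the grafts by flow cytometric sorting. The mTORi-HDL group (3 arrays) came from recipients given mTORi-HDL, high-density lipoprotein particles that carry an inhibitor of the kinase mTOR, at 5 mg/kg on days 0, 2 and 5. The untreated group (3 arrays) came from recipients that were left untreated and rejected their grafts. Recipients of the lipoprotein without the inhibitor were not analysed here, so what the drug did and what its carrier did cannot be told apart. The labels give neither the sort markers nor whether an array stands for 1 recipient or a pool, so p-values measure the spread between these arrays, which may be technical.

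Endothelium lines every vessel and holds its wall together through cadherin and claudin junctions. It senses vascular endothelial growth factor (VEGF) through the kinase receptor Kdr, angiopoietins through Tek and its partner Tie1, and circulating bone morphogenetic proteins with the help of Eng. In a transplanted heart the graft endothelium carries donor antigens and is a known target of rejection. Several of the 10 genes are not private to endothelium: Pecam1 (CD31) is also found on monocytes, macrophages and platelets, Eng (endoglin, CD105) on activated macrophages, and von Willebrand factor in megakaryocytes and platelets. In bulk RNA of this kind, fewer endothelial cells in the sort and less RNA per cell cannot be told apart.

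The values were log2 expression levels from robust multi-array average (RMA) processing, 1 array per sample. Precision is limited by having 3 arrays a group. The array mTORi-HDL 1 stood apart: its values had an SD of 1.68 and correlated with the other arrays at 0.708 to 0.741, where those 5 had SDs of 2.04 to 2.09 and correlated with each other at 0.892 to 0.912. List medians and the differences that it moved most are therefore given with and without it. The labelled cell type was checked against its markers. The macrophage list had mean levels of 6.52 to 8.13 in treated and 6.52 to 6.82 in untreated samples. The T cell list had 6.33 to 7.80 in treated and 8.54 to 8.94 in untreated samples. Of 14 macrophage genes 12 had a mean level above all 17 genes of tissues outside heart and blood (such as albumin and glucagon). So did 9 of 10 T cell genes. On the untreated arrays the T cell list had higher mean levels than the macrophage list. The markers therefore do not show that the sorted cells were macrophages alone, and the word macrophages follows the label here.

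Most of the endothelial genes read within the range of those 17 genes. The 17 genes of other tissues had mean levels of 2.21 to 4.66 on the log2 scale, with a median of 3.59. Of the 10 endothelial genes, *Pecam1* (mean over 6 arrays 6.66) and *Eng* (4.73) lay above that range, and the other 8 lay inside it, between 3.13 for *Tek* and 4.11 for *Kdr*. Array by array, *Eng* lay above the highest of the 17 genes only on mTORi-HDL 2 and 3, and *Pecam1* on every array but mTORi-HDL 1. That highest gene read 4.80, 4.32 and 5.75 on untreated 1, 2 and 3, where *Eng* read 4.50, 3.40 and 4.32. On mTORi-HDL 1 it read 5.26, against 4.58 for *Eng*. *Cdh5* (VE-cadherin), the adhesion molecule of endothelial junctions and a highly specific marker, had a mean of 4.004, above 13 of the 17 and below the others. Over all genes, 37.8% had a mean above that range. The 8 endothelial genes inside it lay between percentile 20.1 (*Tek*) and percentile 47.8 (*Kdr*) of all genes by mean level. A probe set's brightness also depends on its probes, so these positions describe the readings and do not rank the transcripts by abundance.

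**Figure D1:**
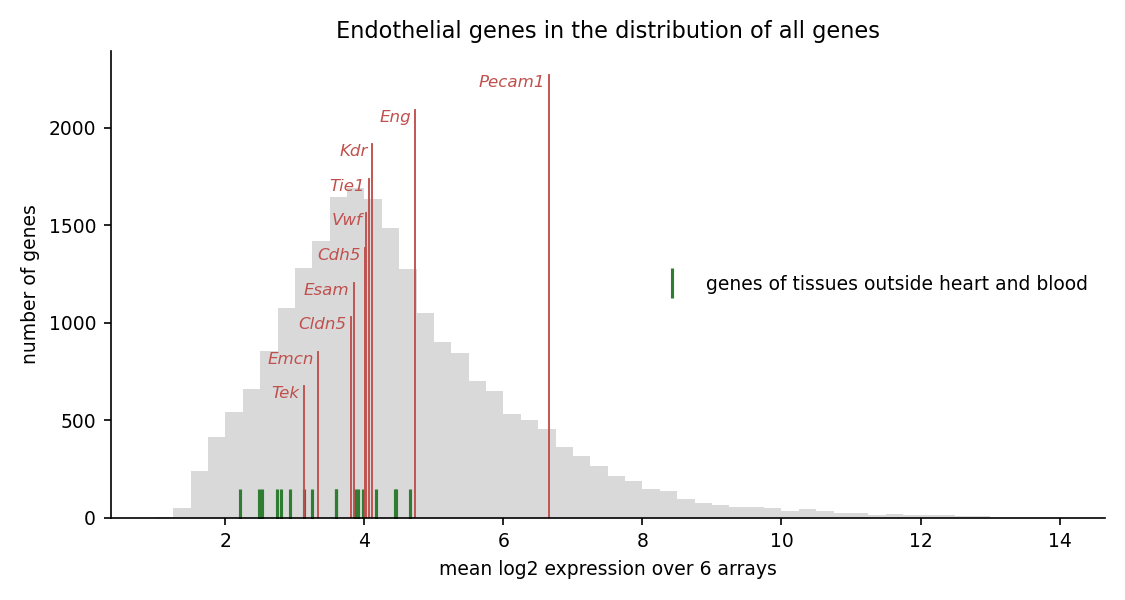
Histogram of the mean log2 expression of all 22180 genes over 6 arrays (x axis, log2; y axis, number of genes), with red lines at the 10 endothelial genes and green ticks at the 17 genes of tissues outside heart and blood. *Pecam1* at 6.66 and *Eng* at 4.73 lie to the right of all green ticks, and the other 8 endothelial genes lie among them.

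Because *Eng* and *Kdr* had the largest positive differences between the groups, the promoters of both are shown, from 250 bases before to 50 bases after the annotated start (RefSeq, build GRCm38.p6, 5′ to 3′ on the gene's strand). Such sequences were at hand for 6 of the 10 genes. Capitals mark AGGAAG, a core of sites for the ETS factors that act in both endothelial and myeloid cells. They also mark GAGGAAGT, a longer form that contains both AGGAAG and GAGGAA. Each was sought on either strand, and they overlap where both occur. The *Eng* window is chr2:32646345-32646644 on the plus strand, and the *Kdr* window is chr5:75978406-75978705 on the minus strand.
Eng: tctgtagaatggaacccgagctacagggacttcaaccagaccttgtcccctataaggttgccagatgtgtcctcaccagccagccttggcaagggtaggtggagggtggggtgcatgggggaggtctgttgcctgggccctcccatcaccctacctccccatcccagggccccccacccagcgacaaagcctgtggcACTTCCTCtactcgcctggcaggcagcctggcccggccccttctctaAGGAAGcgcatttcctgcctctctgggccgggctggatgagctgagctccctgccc
Kdr: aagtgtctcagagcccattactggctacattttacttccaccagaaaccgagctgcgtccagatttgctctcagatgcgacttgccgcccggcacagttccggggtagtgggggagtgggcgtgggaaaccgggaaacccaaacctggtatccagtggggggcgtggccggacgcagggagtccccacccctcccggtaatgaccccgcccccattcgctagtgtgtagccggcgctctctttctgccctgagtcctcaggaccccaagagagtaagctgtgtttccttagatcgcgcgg
The *Eng* window held AGGAAG at 2 places and GAGGAAGT at 1, in reverse orientation and 53 bases before the start. Its 1 GAGGAA lay inside that GAGGAAGT. The *Kdr* window held none of these exact strings, and other forms of such sites were not searched for. AGGAAG was present in 3 of the 6 member promoters (*Eng*, *Tie1* and *Emcn*) and in 35.4% of 32851 promoters of the same length. GAGGAA was present in 3 of the 6 (the same genes) and in 28.3% of all promoters. GAGGAAGT was present in 1 of the 6 and in 3.20% of all promoters. A match is a description of letters and not a binding site.

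The comparison asked whether endothelial transcripts in the sorted cells differed after mTORi-HDL treatment. None of the 10 genes passed limma's test with Benjamini-Hochberg adjustment over all 22180 genes, where 0 genes (0%) passed at an adjusted p of 0.05. *Eng* was the 1 member at an unadjusted p under 0.05, against 4.64% of all genes in either direction and 1.57% in the higher direction. It was also the 1 member whose groups did not overlap, against 10.9% of all genes. On the deposited values 9 of the 10 had a positive difference, against 58.2% of all genes, but this count was 6 after median centring, 8 after quantile normalization, 5 after cyclic loess and 6 without mTORi-HDL 1 (46.6% of all genes). The median log2 difference of the 10 was 0.16, beside 0.08 over all genes, and without mTORi-HDL 1 it was 0.05, beside -0.03. Centring each array on its median also moved the median of all genes to -0.03. The 17 genes of other tissues were 13 higher and 4 lower on the deposited values, with a median of 0.13. Without mTORi-HDL 1 they were 7 higher and 10 lower, with a median of -0.04. Of these 17, *Tnp1* was the 1 at an unadjusted p under 0.05, and its groups did not overlap (0.99 ± 0.35, SE, limma, adjusted p = 0.890).

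*Eng* encodes endoglin, a co-receptor of the transforming growth factor beta family that endothelial cells use to respond to bone morphogenetic proteins. Its log2 level was 4.58, 5.60 and 5.98 on mTORi-HDL arrays 1, 2 and 3, against 4.50, 3.40 and 4.32 on untreated arrays 1, 2 and 3. Every treated array lay above every untreated array, although mTORi-HDL 1 and untreated 1 differed little. The treated mean was 5.39 ± 0.72 and the untreated mean 4.07 ± 0.59 (SD, 3 arrays each), a log2 difference of 1.32 ± 0.46 (SE, limma, unadjusted p = 0.0225, adjusted p = 0.890). Without mTORi-HDL 1 the difference was 1.72 ± 0.37 (SE, limma, unadjusted p = 0.00254, adjusted p = 0.325). Over all genes, 6.97% had an unadjusted p under 0.05 in that fit. *Eng* was no longer at that level without mTORi-HDL 2, mTORi-HDL 3 or untreated 2, where limma's unadjusted values were 0.0622, 0.0770 and 0.0837, or after median centring, where it was 0.0510. Its difference lay between 0.98 and 1.72 in the fits with 1 array left out.

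Macrophage genes as a list also stood above the untreated mean on the arrays mTORi-HDL 2 and 3. Of 14 measured macrophage genes 12 were higher in treated samples; limma gave 5 of these an unadjusted p under 0.05 and 0 an adjusted one, and without mTORi-HDL 1 the count was 13 higher, 9 of them at that level. The mean of the list lay at -0.20, 0.84 and 1.42 relative to the untreated mean on mTORi-HDL 1, 2 and 3, and between -0.20 and 0.11 on the untreated arrays. Their part in the *Eng* difference was not tested.

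*Pecam1* encodes an adhesion molecule of endothelial cell borders, leukocytes and platelets. It had 4.71, 7.41 and 6.65 in mTORi-HDL samples 1, 2 and 3, against 6.79, 6.98 and 7.44 in untreated samples 1, 2 and 3. The array mTORi-HDL 1 was far below the rest, and the other 5 arrays lay within 0.79 of each other. The log2 difference was -0.81 ± 0.65 (SE, limma, adjusted p = 0.890) with that array and -0.04 ± 0.32 (adjusted p = 0.993) without it. The 95% interval without that array ran from -0.81 to 0.73. Genes of similar brightness also read low on mTORi-HDL 1, where the median gene of the same decile had a deviation of -1.22 from its untreated mean and *Pecam1* one of -2.36. *Csf1r*, the receptor that macrophages need for survival, read 5.00, 8.75 and 9.08 on mTORi-HDL 1, 2 and 3, against 8.19, 7.54 and 7.93 on the untreated arrays.

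**Figure D2:**
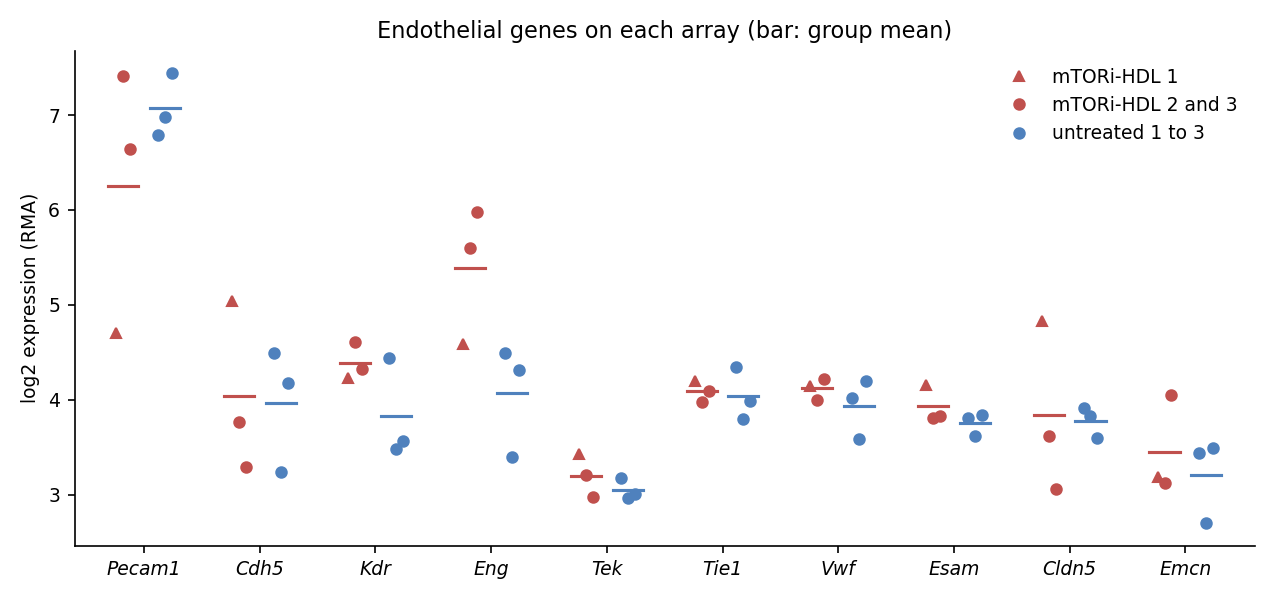
Log2 expression (y axis) of the 10 endothelial genes (x axis) on each array, mTORi-HDL in red with mTORi-HDL 1 as a triangle, untreated in blue, and group means as bars. For *Eng* all red points lie above all blue points; for *Pecam1* the triangle at 4.71 lies apart, and for *Cdh5* and *Cldn5* the triangles at 5.05 and 4.83 are the highest points.

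The junction genes gave a different picture on each treated array. *Cdh5* had 5.05, 3.77 and 3.29 on mTORi-HDL 1, 2 and 3, against 4.49, 3.24 and 4.18 on untreated 1, 2 and 3. *Cldn5*, the claudin of endothelial tight junctions, had 4.83, 3.62 and 3.06 on mTORi-HDL 1, 2 and 3, against 3.91, 3.83 and 3.60 on untreated 1, 2 and 3. For both genes mTORi-HDL 1 was the highest array and the groups overlapped. Their log2 differences were 0.07 ± 0.53 for *Cdh5* and 0.06 ± 0.45 for *Cldn5* over 6 arrays (SE, limma, adjusted p = 0.984 each). Without mTORi-HDL 1 both turned negative, at -0.44 ± 0.40 and -0.44 ± 0.26, and did not pass (limma, adjusted p = 0.907 for *Cdh5* and 0.837 for *Cldn5*). *Esam*, an adhesion molecule of endothelial junctions and platelets, varied less, with 4.15, 3.81 and 3.83 on the treated arrays against 3.81, 3.62 and 3.84 on the untreated arrays. Its groups overlapped and its difference was 0.17 ± 0.25 (SE), with a 95% interval of -0.42 to 0.77, and 0.062 ± 0.21 (SE) without mTORi-HDL 1.

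The groups overlapped for each of the 3 kinase receptors. *Kdr*, the main signalling receptor for VEGF, had 4.23, 4.61 and 4.33 on mTORi-HDL 1, 2 and 3, against 4.44, 3.49 and 3.56 on untreated 1, 2 and 3. Untreated 1 read within the treated values and the other untreated arrays below them. The difference was 0.56 ± 0.33 (SE, limma, adjusted p = 0.890), and 0.64 ± 0.34 (adjusted p = 0.798) without mTORi-HDL 1. When untreated 1 was left out it was 0.86, and *Kdr* then joined *Eng* at an unadjusted p under 0.05. *Tek*, the angiopoietin receptor, had 3.43, 3.21 and 2.97 on the treated arrays against 3.17, 2.97 and 3.01 on the untreated arrays. It was the dimmest of the 10, with overlapping groups and a difference of 0.15 ± 0.26 (SE), which was 0.042 ± 0.22 without mTORi-HDL 1. *Tie1*, the receptor that pairs with Tek, had 4.20, 3.98 and 4.09 on the treated arrays against 4.35, 3.80 and 3.99 on the untreated arrays. Its difference of 0.05 ± 0.27 (SE) had a 95% interval of -0.58 to 0.67, and it was -0.0083 without mTORi-HDL 1 and also negative (-0.058, -0.060 and -0.11) after median centring, quantile normalization and cyclic loess.

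*Vwf*, the clotting glycoprotein that endothelium stores in Weibel-Palade bodies, had 4.15, 3.999 and 4.22 on mTORi-HDL 1, 2 and 3, against 4.02, 3.59 and 4.20 on untreated 1, 2 and 3. Its groups overlapped, and the difference was 0.19 ± 0.27 (SE), with a 95% interval of -0.45 to 0.83. *Emcn*, a sialomucin of capillary and venous endothelium, had 3.19, 3.12 and 4.05 on the treated arrays against 3.44, 2.70 and 3.50 on the untreated arrays. Here mTORi-HDL 3 stood highest and the groups overlapped, with a difference of 0.24 ± 0.37 (SE) and a 95% interval of -0.63 to 1.11, and 0.37 ± 0.38 without mTORi-HDL 1. For *Tek*, *Tie1*, *Vwf*, *Esam* and *Emcn* limma's adjusted p lay between 0.903 and 0.978. These intervals do not show that the levels were alike.

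**Figure D3:**
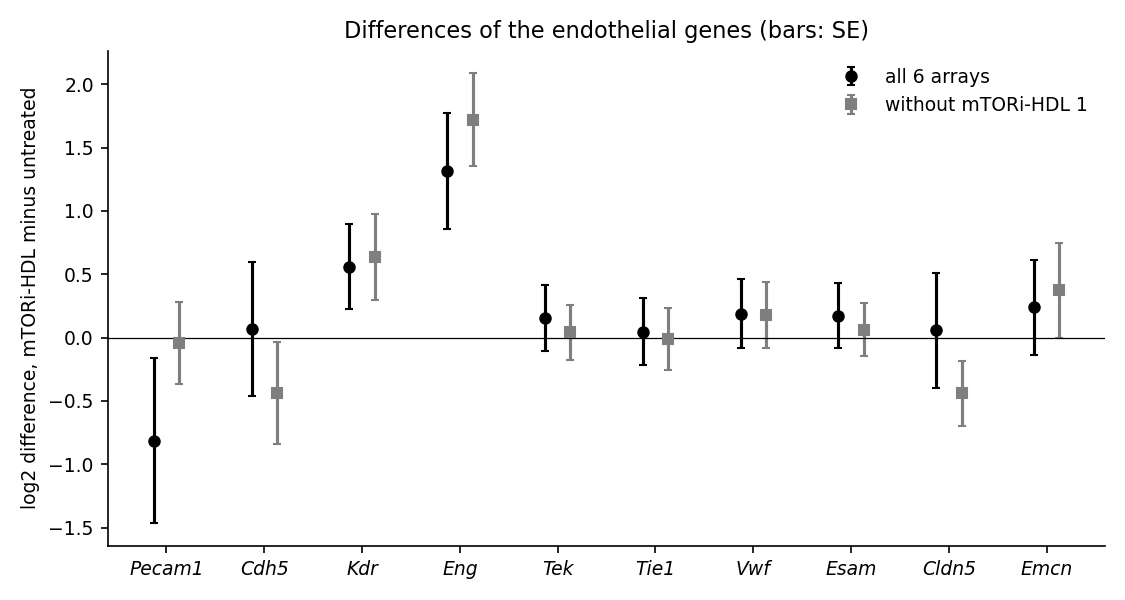
Log2 difference of mTORi-HDL minus untreated (y axis) for each endothelial gene (x axis), with SE from limma, over all 6 arrays (black circles) and without mTORi-HDL 1 (grey squares). *Eng* has the largest difference in both, 1.32 and 1.72; *Cdh5* and *Cldn5* change sign when that array is left out.

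On untreated 2 the lowest of the 6 values was found for 8 of the 10 genes, against 19.9% of all genes, and the mean of the 10 was 3.76 there, against 4.29 on untreated 1 and 4.16 on untreated 3. The treated arrays 1, 2 and 3 had means of 4.25, 4.31 and 4.25, which overlap the untreated values. On mTORi-HDL 1 the highest value was found for 4 of the 10 genes, against 45.2% of all genes. The 10 genes spanned 3.19 to 5.05 on that array, and 2.70 to 7.44 over the others. Dim genes as a whole read high on mTORi-HDL 1: in deciles 3, 4 and 5 of all genes by brightness, where 8 of the 10 lie, the median gene was 0.55, 0.56 and 0.51 above the untreated mean. *Cdh5* (1.07) and *Cldn5* (1.05) lay further above, and the other 6 lay between -0.03 and 0.40. On mTORi-HDL 2 and 3 those medians were within 0.06 of 0.

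**Figure D4:**
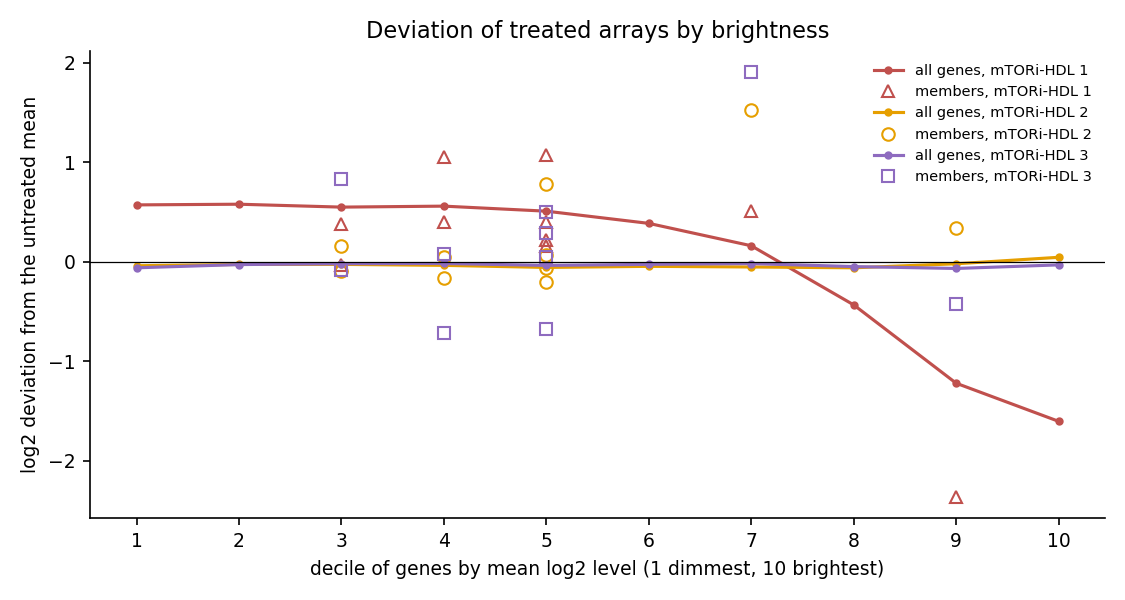
Log2 deviation from the untreated mean (y axis) on each treated array, for the median gene of each decile of all genes ordered by mean level (lines; x axis, 1 dimmest to 10 brightest) and for the 10 endothelial genes (open symbols). The line of mTORi-HDL 1 runs from 0.57 in the dimmest decile to -1.60 in the brightest, while the lines of mTORi-HDL 2 and 3 stay near 0 and *Eng*, in decile 7, lies 1.53 and 1.91 above its untreated mean on those arrays.

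Among the 45 pairs of the 10 genes, Pearson's r across the 6 arrays was positive for 32 and over 0.7 for 8, with a median of 0.32. Without mTORi-HDL 1 the numbers were 34 positive and 7 over 0.7, with a median of 0.34. All genes share the 6 arrays and their scaling, so these correlations are descriptions.

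Other endothelial genes were read from 8 lists. Of 22 further pan-endothelial genes 15 were higher and 7 lower in treated samples, 0 at an unadjusted p under 0.05, with a median log2 difference of 0.17 and, without mTORi-HDL 1, of -0.08 with 9 higher and 13 lower. The mean levels of 3 of the 22 lay above those of all 17 genes of other tissues (*Ecscr*, and *S1pr1* and *Icam2*, which leukocytes also carry). So did 4 of 12 capillary, 2 of 10 arterial and 3 of 12 venous, lymphatic and endocardial genes. The count was 3 of 7 for adhesion genes and 8 of 20 for ligands and co-receptors. It was 3 of 13 for junction partners and 3 of 7 for Weibel-Palade genes, against 37.8% of all genes. *Flt1*, another VEGF receptor of endothelium, also made by monocytes, had 3.27, 3.88 and 3.65 on mTORi-HDL 1, 2 and 3, against 4.005, 4.66 and 4.11 on untreated 1, 2 and 3. Its groups did not overlap, in the direction opposite to *Kdr*, and its difference of -0.66 ± 0.31 (SE) did not pass (limma, adjusted p = 0.890). *Robo4*, *Nos3*, *Plvap* and *Cd34* (a guidance receptor, the endothelial nitric oxide synthase, a protein of endothelial fenestrae and a sialomucin) had differences of 0.28, 0.37, 0.13 and 0.16, and without mTORi-HDL 1 of -0.11, 0.16, -0.12 and -0.12.

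Among 12 capillary genes 11 were higher and 1 lower, with a median of 0.33, and without mTORi-HDL 1 the median was 0.09 with 8 higher. *Fabp4*, a fatty acid carrier of capillary endothelium, fat cells and macrophages, was the 1 at an unadjusted p under 0.05. It had 5.86, 6.84 and 7.33 in mTORi-HDL samples 1, 2 and 3, against 4.97, 3.79 and 4.57 in untreated samples 1, 2 and 3. All treated values lay above all untreated values, with a difference of 2.23 ± 0.47 (SE, limma, adjusted p = 0.696). *Cd36*, a fatty acid and lipoprotein receptor of the same cell types, had 7.16, 8.71 and 8.85 on the treated arrays against 8.51, 5.85 and 6.49 on the untreated arrays, which overlap.

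Arterial genes (10 measured, 9 higher) and venous, lymphatic and endocardial genes (12 measured, 11 higher) had medians of 0.22 and 0.25, and 0 in each list were at an unadjusted p under 0.05. Without mTORi-HDL 1 the medians were 0.12 and 0.07. Of 7 adhesion genes of activated endothelium 5 were higher, with a median of 0.24 (0.11 without mTORi-HDL 1, again with 5 higher) and 0 at an unadjusted p under 0.05. *Vcam1*, the ligand for leukocyte integrins on inflamed endothelium, had 4.97, 4.78 and 6.00 on mTORi-HDL 1, 2 and 3, against 4.71, 4.70 and 4.17 on untreated 1, 2 and 3. Its groups did not overlap, and its difference was 0.72 ± 0.39 (SE, limma, adjusted p = 0.890). *Sele* and *Selp*, the selectins that slow leukocytes in inflamed vessels, had differences of 0.34 and 1.18, and *Icam1* one of -0.71, all with overlapping groups. Without mTORi-HDL 1 the direction turned for *Sele* (-0.17) and *Icam1* (0.11), and *Selp* had 1.30.

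Ligands and co-receptors around Kdr, Tek and Eng were read on 20 genes, of which 15 were higher and 5 lower, with a median of 0.19 and, without mTORi-HDL 1, of 0.08 with 13 higher and 7 lower. At an unadjusted p under 0.05 were *Nrp2*, a co-receptor for VEGF family ligands, and *Id3*, a target gene of bone morphogenetic protein signals, while 0 passed adjustment. *Nrp2* had 4.46, 5.37 and 5.15 on mTORi-HDL 1, 2 and 3, against 4.12, 3.87 and 4.32 on untreated 1, 2 and 3 (log2 difference 0.89 ± 0.32, SE). *Id3* had 4.94, 5.59 and 5.79 on the treated arrays against 4.81, 4.34 and 4.69 on the untreated arrays (0.83 ± 0.32, SE). In both genes all treated arrays lay above all untreated arrays. *Vegfa*, the ligand of Kdr, had 5.50, 6.30 and 7.73 on the treated arrays against 5.80, 5.82 and 5.34 on the untreated arrays, which overlap (difference 0.86, and 1.36 without mTORi-HDL 1), and *Angpt1*, the ligand that activates Tek, had a difference of -0.40. *Angpt2*, which modulates Tek, and *Nrp1*, a VEGF co-receptor, had differences of 0.19 and -0.19, and without mTORi-HDL 1 of 0.079 and 0.76. *Nrp1* read 4.29 on that array and 5.82 to 7.53 on the other 5. *Acvrl1*, the kinase receptor that Eng assists, had a difference of 0.55 ± 0.31 (SE) with overlapping groups.

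Of 13 partners of endothelial junctions 11 were higher and 2 lower, with a median of 0.09 and 0 at an unadjusted p under 0.05. Without mTORi-HDL 1 the split was 7 higher and 6 lower, with a median of 0.11. Of 7 genes linked to Weibel-Palade bodies and their release, 4 were higher and 3 lower, of which 1 and 2 were at an unadjusted p under 0.05 and 0 passed adjustment. *Cd63*, a membrane protein of these bodies and of macrophage lysosomes, had a difference of 1.71 ± 0.60 (SE). *Rab27a*, a GTPase of granule release that lymphocytes also use, had 4.74, 5.45 and 5.68 on mTORi-HDL 1, 2 and 3, against 7.004, 7.43 and 7.17 on untreated 1, 2 and 3. Every treated value lay below every untreated value, with a difference of -1.91 ± 0.33 (SE, limma, adjusted p = 0.468), while the 10 T cell genes measured on the same arrays were lower in 10 of 10 cases, with a median of -1.54. Of these T cell genes 8 were at an unadjusted p under 0.05 in limma's test (0 after adjustment) and 7 did not overlap between groups. Without mTORi-HDL 1 all 10 were again lower, 8 at that level, with a median of -1.03. *Stxbp5*, a brake on granule release, had a difference of -1.08 ± 0.36 (SE). The part of T cells in these values was not tested.

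Markers of platelets and of other cells of the heart were set beside the endothelial genes. Of 10 platelet and megakaryocyte genes 8 were higher, 0 at an unadjusted p under 0.05, with a median of 0.14 and, without mTORi-HDL 1, of -0.05. *Itga2b*, the platelet integrin, had 5.20, 4.39 and 4.51 on mTORi-HDL 1, 2 and 3, against 4.31, 4.34 and 3.84 on untreated 1, 2 and 3. *Pf4*, a platelet granule chemokine, had 8.45, 5.06 and 4.97 on the treated arrays against 5.96, 4.78 and 5.43 on the untreated arrays, so mTORi-HDL 1 stood far above the rest. Of 12 pericyte and smooth muscle genes, from the cells that wrap vessels, 8 were higher with a median of 0.21, and without mTORi-HDL 1 they were 6 higher and 6 lower with a median of 0.015. *Rgs5*, a pericyte gene, had 4.24, 4.64 and 4.15 on the treated arrays against 3.11, 3.09 and 3.36 on the untreated arrays, without overlap (difference 1.15 ± 0.27, SE, limma, adjusted p = 0.696). Of 10 fibroblast genes 9 were higher, with a median of 0.49, and without mTORi-HDL 1 again 9, with a median of 0.35. Of 12 cardiomyocyte genes 11 were higher, with a median of 0.34, and without mTORi-HDL 1 the count was 8 with a median of 0.22. At an unadjusted p under 0.05 were 1 pericyte, 3 fibroblast and 2 cardiomyocyte genes, all higher, and 0 passed adjustment. *Dcn*, the matrix proteoglycan decorin, had a difference of 2.22 ± 0.44 (SE), and *Tnnt2*, a troponin of heart muscle, one of 1.17 ± 0.49 (SE). The mean level of the fibroblast list was 5.12 to 5.67 in treated and 4.55 to 4.86 in untreated samples, and that of the 10 endothelial genes was 4.25 to 4.31 in treated and 3.76 to 4.29 in untreated samples. The fibroblast mean includes *Thy1*, the brightest gene of that list (mean 10.08) and its 1 lower gene. *Thy1* read 6.73, 10.53 and 10.02 on mTORi-HDL 1, 2 and 3, against 11.18, 10.97 and 11.05 on untreated 1, 2 and 3. The mean of the T cell list lay at -2.44, -1.14 and -0.97 relative to its untreated mean on mTORi-HDL 1, 2 and 3. The part of T cells in the *Thy1* values was not tested. Nor was the part of platelets, pericytes, smooth muscle, fibroblasts and cardiomyocytes in the endothelial values.

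**Figure D5:**
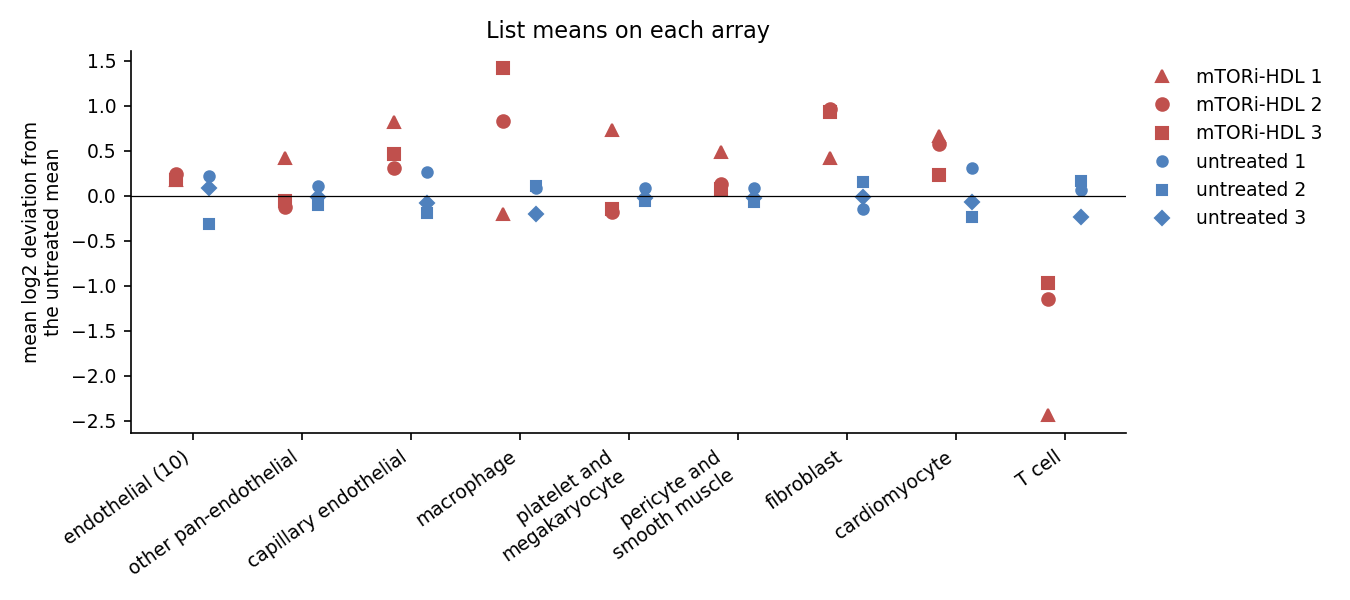
Mean log2 deviation of each gene list from its untreated mean (y axis) on every array, mTORi-HDL in red and untreated in blue, for the 10 endothelial genes and 8 other lists (x axis). The 10 endothelial genes lie between 0.18 and 0.24 on the treated arrays and between -0.31 and 0.22 on the untreated arrays, while the T cell list lies between -2.44 and -0.97 on the treated arrays.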

How the data were processed

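Macrophages sorted from heart grafts of mice were profiled on 6 arrays, from 15 ng of RNA each per the labels' protocols. The deposited values are log2 expression levels of 41345 probe sets, for which the authors used RMA in Affymetrix Expression Console, per the submitters' processing notes. The sources used here name no versions, filters or build. Of the probe sets 23521 carried 1 gene symbol, 1814 several and 16010 none in the platform annotation. The brightest probe set with 1 symbol stood for each of 22180 genes, with no filter and no further scaling. The test was limma 3.58.1 under R 4.3.3, with a design of group alone in lmFit followed by eBayes, two-sided, and Benjamini-Hochberg adjustment over all genes. It was tested on simulated data with independent normal values and equal variance on all arrays, which does not mimic mTORi-HDL 1. Differences are mTORi-HDL minus untreated on the log2 scale.

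The 10 genes and 15 further lists (202 entries, 188 measured, 4 on probe sets of several genes, 10 not analysed here) were chosen with earlier results of these data known. The text names all 10 genes, and from other lists up to 2 genes per direction with the smallest p and fixed partners. *Ecscr* and *Icam2* were named after their values were seen. No p was adjusted over a list, and lists are described by counts and medians. Alternatives were other scalings, filters on dim genes, variance models, weights per array, a replicate block, fits lacking 1 array, and averaging of probe sets per gene.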

Additional observations from a re-analysis of the deposited data

How the results depend on the processing

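Under none of the alternatives did any of the 10 endothelial genes pass limma's adjusted p of 0.05. Over all genes 0 passed in each fit except with array weights, where 1 gene, *H2bc12*, did. At an unadjusted p under 0.05 there were 1029 genes. The count of endothelial genes at that level was 1 as reported, 0 after median centring, and 0 to 2 with 1 array left out; without mTORi-HDL 2, mTORi-HDL 3 or untreated 2 it was 0, and without untreated 1 it was 2. The median difference of the 10 genes was 0.05 to 0.25 with 1 array left out. It was 0.058 after median centring, 0.069 after quantile normalization, 0.054 with array weights and -0.019 after cyclic loess. Single genes kept their direction in 81 of 91 fits under other settings, but many of these fits could not change it. The filters, variance models, replicate block and averaging of probe sets left each log2 difference of these genes as it was. Only the other scalings and the array weights could move it, and all 10 reversals came from those. The exceptions were *Cdh5* (-0.040 after median centring, -0.095 after cyclic loess, -0.44 with array weights), *Cldn5* (-0.047, -0.12 and -0.40 in the same order), *Tek* (-0.040 after cyclic loess) and *Tie1* (-0.058 after median centring, -0.060 after quantile normalization, -0.11 after cyclic loess). With 1 array left out the differences ranged from -0.44 to 0.44 for *Cdh5*, -0.44 to 0.45 for *Cldn5*, -0.075 to 0.20 for *Tie1* and -0.060 to 0.40 for *Emcn*; the cause was not tested. The filter at the median brightness removed 8 of the 10 genes and that at the 25th percentile removed *Tek*. Groups share replicate numbers, and same-numbered arrays deviated together at r = 0.14, 0.13 and -0.02. The arrays mTORi-HDL 1 and 2 correlated best with the untreated array of their own number, and mTORi-HDL 3 with untreated 2. As these correlations were low, the numbers were not taken as pairs. With the replicate block 0 genes passed adjustment, and *Eng* had an unadjusted p of 0.0330 (limma, adjusted p = 0.847); it changed no other call.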

Other observations

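Of all other genes, the 5 whose levels followed the mean of the 10 endothelial genes most closely over the 6 arrays were *Tekt5*, *Olfm1*, *Gm15128*, *Olfr469* and *Lrrc23*, with Pearson's r of 0.97 to 0.99, and 0.98 to 0.99 over the 5 arrays without mTORi-HDL 1. Each of the 5 was lowest on untreated 2, as was the mean of the 10 genes. *Olfm1* had 6.28, 6.69 and 6.47 on mTORi-HDL 1, 2 and 3, against 6.33, 4.87 and 6.01 on untreated 1, 2 and 3. These are the extremes of 22170 correlations over few arrays and are given as a description.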
